A study of Mus musculus with 20 samples.

Results

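The subject is 9 neutrophil genes: Lcn2, S100a8, S100a9, Ngp, Camp, Ltf, Retnlg, Chil3 and Elane. They were taken by their symbol in the platform annotation. Of the 9 genes, 8 had a probe set assigned to that gene alone, among 18193 genes on the array named this way. Retnlg was not analysed here because the annotation used gives it no probe set of its own. Each of the 8 was read by 1 such probe set.

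The study compared the hearts of old and young mice. Old mice were 25 to 28 months of age (10 arrays, replicates 1 to 10) and young mice 4 to 6 months (10 arrays, replicates 11 to 20). All were male C57BL/6J, an inbred laboratory strain, and the labels name no treatment and no altered allele. Each array, an Affymetrix MOE430 2.0, measured total RNA from the frozen cardiac ventricle of a single mouse, since 20 mice and 20 arrays are listed. Values are log2 signals made with GCRMA, a method that corrects background by probe sequence. The ventricle holds heart muscle, vessels, stroma and blood, so in this bulk RNA fewer cells of a type and less RNA per cell cannot be told apart.

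Neutrophils are short-lived white blood cells that kill microbes with stored proteins. In the bone marrow, early precursors make the azurophil granules, which hold the serine protease neutrophil elastase (Elane). Later precursors make the specific granules, which hold lactoferrin (Ltf), the cathelicidin precursor (Camp), neutrophilic granule protein (Ngp) and lipocalin 2 (Lcn2). Transcripts of most granule proteins are abundant in marrow precursors and scarce in circulating cells. S100a8 and S100a9 encode the 2 subunits of calprotectin, a calcium- and metal-binding cytosolic protein, and their transcripts stay abundant in mature neutrophils and in monocytes. Lcn2, which captures bacterial iron chelators, is also made by macrophages, endothelium, epithelia and heart muscle under inflammatory stimulation. Chil3, a chitinase-like lectin, is made in mice by macrophages as well as by neutrophil precursors.

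For 3 members that were higher in old hearts and for Ngp, which stayed low, the 300 bases around the transcription start are given because S100a8 and S100a9 varied together across mice. The sequences are from RefSeq (GRCm38.p6), from 250 bases before the start to 50 after it, written in the direction of the gene. Capitals mark the letters TTNNGNAA, a loose form of the C/EBP site, and GAGGAA, the core read by PU.1, each searched on both strands. C/EBP factors and PU.1 are transcription factors of granulocyte development.
S100a8, chr3:90668821-90669120, plus strand: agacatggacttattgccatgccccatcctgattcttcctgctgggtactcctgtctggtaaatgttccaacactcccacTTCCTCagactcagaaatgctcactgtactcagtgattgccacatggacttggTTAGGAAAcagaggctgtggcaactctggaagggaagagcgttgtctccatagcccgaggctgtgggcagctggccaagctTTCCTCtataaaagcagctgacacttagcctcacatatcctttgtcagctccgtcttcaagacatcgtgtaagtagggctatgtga
S100a9, chr3:90695672-90695971, minus strand: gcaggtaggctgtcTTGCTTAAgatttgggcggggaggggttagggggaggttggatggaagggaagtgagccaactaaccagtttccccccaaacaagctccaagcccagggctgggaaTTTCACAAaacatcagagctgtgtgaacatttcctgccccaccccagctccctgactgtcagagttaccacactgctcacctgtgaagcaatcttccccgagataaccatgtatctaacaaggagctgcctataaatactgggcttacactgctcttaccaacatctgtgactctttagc
Lcn2, chr2:32387690-32387989, minus strand: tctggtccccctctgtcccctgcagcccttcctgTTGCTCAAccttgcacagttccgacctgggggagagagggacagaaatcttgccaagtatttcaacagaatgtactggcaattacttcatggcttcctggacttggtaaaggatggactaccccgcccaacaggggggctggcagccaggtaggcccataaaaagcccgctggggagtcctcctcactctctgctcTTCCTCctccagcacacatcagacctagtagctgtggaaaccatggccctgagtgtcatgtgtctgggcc
Ngp, chr9:110419558-110419857, plus strand: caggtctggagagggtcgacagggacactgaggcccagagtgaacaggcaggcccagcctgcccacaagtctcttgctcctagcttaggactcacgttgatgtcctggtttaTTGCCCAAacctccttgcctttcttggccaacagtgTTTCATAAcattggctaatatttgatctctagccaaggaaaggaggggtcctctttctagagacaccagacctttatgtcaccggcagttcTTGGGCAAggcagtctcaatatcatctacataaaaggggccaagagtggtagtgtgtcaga

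The C/EBP letters occurred in 7 of the 9 members' promoters and in 40.7% of 27025 mouse promoters of that length. The PU.1 letters occurred in 4 of 9 and in 28.3% of all. S100a8 held the C/EBP letters 117 bases before the start, with PU.1 letters at 170 and 36 bases. S100a9 held the C/EBP letters at 236 and 130 bases, and Lcn2 held them at 216 bases with PU.1 letters at 20. Ngp, whose transcript lay at the floor, held the C/EBP letters 3 times, at 138, 102 and 11 bases, and the matches of the 2 cores did not overlap in these 4 windows. A match is a description of the letters. The letters were chosen after matches of several spellings were seen, so the shares are no measure of enrichment.

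Before the results, 2 features of these arrays bear on every comparison. The atrial myosin light chain gene Myl7 ran from 2.36 to 14.55 on the log2 scale in old arrays and from 2.38 to 2.44 in young arrays, although both groups are labelled ventricle. It exceeded 10 in 7 old arrays and in 0 young ones, and the age difference of each measured member is given with and without those 7 arrays. Correlations, likeness and list counts are given with them only. The arrays' deviations from their group means also formed 5 sets, every set being 2 old and 2 young arrays, with a mean correlation of 0.40 within and −0.13 between sets. The labels name no batch. Array medians ran from 3.07 to 3.20, no 2 arrays held identical values, and the number of arrays limits the precision.

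Calprotectin and lipocalin 2 transcripts were higher in old hearts, while Ngp, Camp, Ltf and Elane lay at the floor of the array at both ages. S100a8, S100a9 and Lcn2 rose by 2.24, 2.45 and 2.25 on the log2 scale, or 4.73-, 5.45- and 4.76-fold, and the fold of Lcn2 is rough since all its young values lay under 4. S100a8 and S100a9 were no longer called in 3 of the other settings. Their adjusted p was 0.123 and 0.0877 with an atrial index as a covariate, 0.313 and 0.252 once the 7 arrays high in Myl7 were left out, and 0.132 and 0.103 with the red cell marker mean as a covariate. The 4 floor genes did not exceed a log2 value of 4 in any of the 20 arrays. Chil3 left the floor in some old hearts and in no young one.

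A value above 4 in at least 10 of 20 arrays was required for the gene test, which left 9275 genes, and 3 of the 8 measured members met it. In the limma fit, 18.7% of all tested genes changed with age at an adjusted p under 0.05, with 11.2% higher and 7.49% lower in old. The 3 members that met the filter were all called higher. Lcn2 was under 4 in every young array and met the filter only through the old ones, so this count is not read as support. In the same fit without the filter, with 18193 genes tested, 23.9% were called (7.15% higher and 16.7% lower in old) and the same 3 of 8 members were called higher. Near the floor in young, defined as a young mean under 4, were 6 of the 8 members: Lcn2, Chil3, Ngp, Camp, Ltf and Elane.

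S100a8, the smaller calprotectin subunit, had log2 values from 6.01 to 9.33 in old hearts with a median of 6.73, against 3.15 to 8.37 in young hearts with a median of 4.12. The mean was 7.14 ± 1.12 in old hearts (SD, n = 10) and 4.90 ± 1.68 in young hearts (SD, n = 10). The difference of 2.24 ± 0.58 (SE) passed the limma test (adjusted p = 0.00874), with an unadjusted two-sided permutation p of 0.00298 (1 of 8 such tests, 1 per member). The groups overlapped: young replicates 11, 15 and 17, at 6.51, 8.37 and 6.38, lay within the range of the old arrays, and the other 7 young arrays lay below every old one. The 3 highest old arrays were replicates 5, 9 and 1, at 9.33, 8.61 and 8.06.

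S100a9, the partner subunit, had log2 values from 7.08 to 10.42 in old hearts with a median of 7.64, against 3.99 to 9.18 in young hearts with a median of 4.64. The mean was 8.10 ± 1.08 in old hearts (SD, n = 10) and 5.66 ± 1.90 in young hearts (SD, n = 10). The difference of 2.45 ± 0.62 (SE) passed the limma test (adjusted p = 0.00839; unadjusted permutation p = 0.00329). The overlap was that of S100a8. Young replicates 15, 11 and 17 stood at 9.18, 7.98 and 7.51, and the 7 others were below all old arrays. In each gene 2 old arrays lay above every young one.

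Lcn2, lipocalin 2, had log2 values from 4.25 to 6.85 in old hearts with a median of 6.03, against 2.72 to 3.77 in young hearts with a median of 3.64. The mean was 5.74 ± 0.95 in old hearts (SD, n = 10) and 3.49 ± 0.34 in young hearts (SD, n = 10). The 2 groups did not overlap, a separation in the direction of old that 1.36% of tested genes showed. The difference of 2.25 ± 0.29 (SE) passed the limma test (adjusted p = 1.417e-05; adjusted p = 0.000145 without the filter), and the permutation p of 1e-05 is the smallest these resamples can give. Young replicates 11, 15 and 17, which were high for calprotectin, stood at 3.77, 3.70 and 3.77 for Lcn2, and the other 7 young arrays reached up to 3.75.

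**Figure D1:**
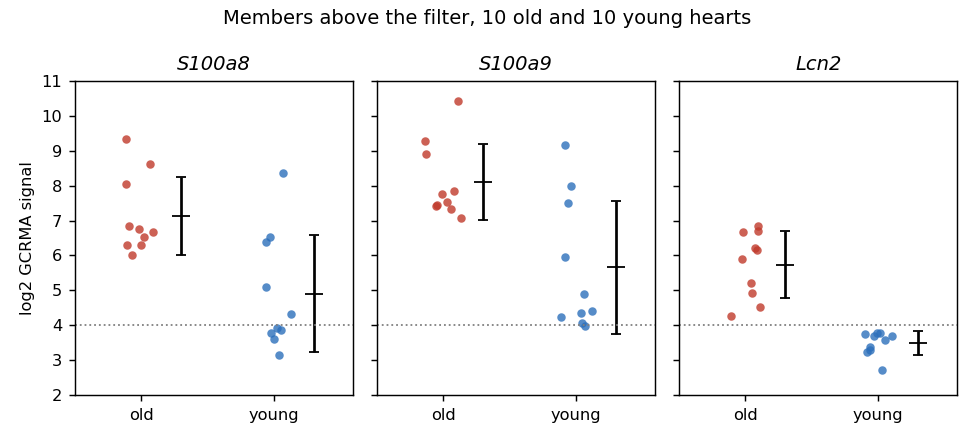
Log2 GCRMA signal of S100a8, S100a9 and Lcn2 in 10 old and 10 young hearts, 1 point per heart, with the mean and SD beside each group and a dotted line at the filter value of 4. Both calprotectin genes overlap between the groups through 3 young hearts, and Lcn2 is at 4.25 or more in every old heart and at 3.77 or less in every young one.

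Chil3 was the member with a raised signal in a minority of old hearts. Its log2 value was 5.87 in old replicate 1, 4.26 in replicate 5, 3.77 in replicate 9 and 3.73 in replicate 6, and between 2.40 and 2.63 in the 6 other old arrays, against 2.34 to 2.43 in young arrays. Only 2 old arrays exceeded 4, so it did not meet the filter. The mean was 3.26 ± 1.15 in old hearts (SD, n = 10) and 2.39 ± 0.03 in young hearts (SD, n = 10). Without the filter the difference of 0.86 ± 0.35 (SE) did not pass the limma test (adjusted p = 0.0707), and the unadjusted permutation p was 0.00027. The difference was 1.26 without the 7 arrays high in Myl7 (adjusted p = 0.212), 1.09 with the atrial index (adjusted p = 0.184) and 0.39 with the red cell mean (adjusted p = 0.469). In all, 8 old arrays lay above the young ones, the lower 4 of them at 2.63 or less. Old replicates 1, 5 and 9 were also the 3 highest for S100a8, S100a9 and Lcn2.

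Ngp, Camp and Ltf, of the specific granules, were not above 4 in any array. Ngp averaged 2.35 ± 0.30 in old hearts (SD, n = 10) and 2.34 ± 0.13 in young hearts (SD, n = 10), and the difference of 0.01 did not pass the limma test without the filter (adjusted p = 0.931). Camp averaged 2.29 ± 0.13 in old hearts and 2.27 ± 0.01 in young hearts, and its difference was 0.02 (adjusted p = 0.782). Ltf averaged 2.08 ± 0.09 in old hearts and 2.08 ± 0.01 in young hearts, and its difference was 0.004 (adjusted p = 0.929). Old replicate 9 was the highest array for all 3, at 3.19 for Ngp, 2.63 for Camp and 2.32 for Ltf, still under 4. That array was also the highest old array for some floor genes of other cell types, such as the eosinophil marker Epx.

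Elane, the azurophil protease, was also at the floor, with log2 values from 2.13 to 2.42 in old and 2.23 to 2.65 in young arrays. The difference of −0.08 did not pass the limma test without the filter (adjusted p = 0.203), nor did that of −0.08 without the 7 arrays (adjusted p = 0.433). Without those arrays Ngp, Camp and Ltf were at −0.09, −0.03 and −0.03 (adjusted p = 0.422, 0.222 and 0.220). At the floor the groups differed slightly as a whole: over 24019 probe sets under 4 in all 20 arrays, the median old minus young difference was −0.04. A difference of a few hundredths between floor values therefore has no reading as a level.

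**Figure D2:**
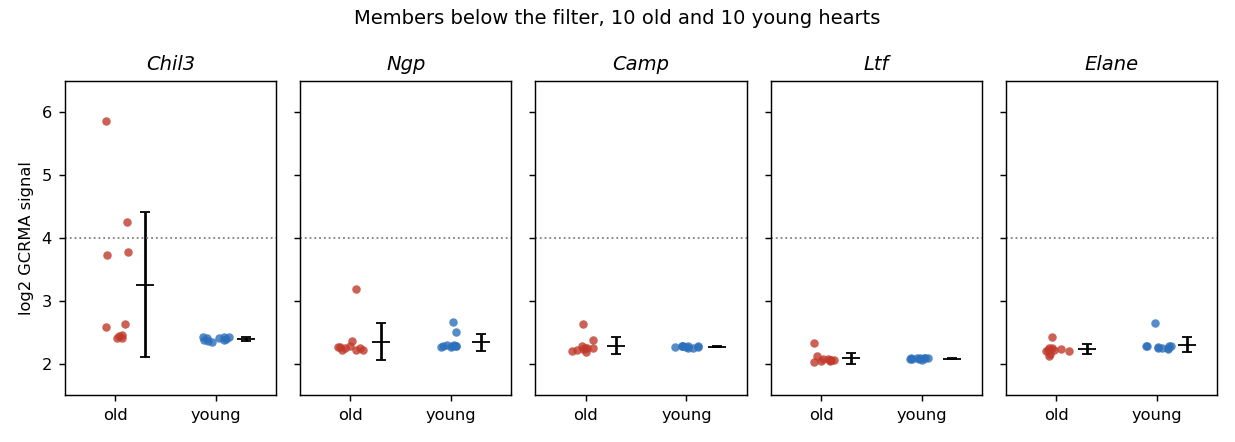
Log2 GCRMA signal of Chil3, Ngp, Camp, Ltf and Elane in 10 old and 10 young hearts, 1 point per heart, with mean and SD beside each group and a dotted line at 4. Chil3 exceeds 4 in 2 old hearts, and the other 4 genes stay at or below 3.19 in every heart.

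Within each age group the calprotectin genes varied together from mouse to mouse. Over the 10 old arrays S100a8 and S100a9 had a Pearson r of 0.959 (permutation p = 0.00055, adjusted p = 0.00605) and a Spearman rho of 0.854 (permutation p = 0.00287, adjusted p = 0.0316). Over the 10 young arrays r was 0.981 (permutation p = 7e-05, adjusted p = 0.00154) and rho 0.939 (permutation p = 0.00015, adjusted p = 0.0033). Without the 2 arrays farthest from the median of S100a9, r was 0.940 in old and 0.959 in young. Adjustment was over 22 relations of S100a8, 11 in each group, and these 2 alone had an adjusted Pearson p under 0.05.

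The relations of Lcn2 and Chil3 with S100a8 did not pass the adjusted test. In old arrays r was 0.673 with Lcn2 (permutation p = 0.0313, adjusted p = 0.115; rho 0.612, permutation p = 0.0671, adjusted p = 0.246) and 0.725 with Chil3 (permutation p = 0.0176, adjusted p = 0.115; rho 0.673, permutation p = 0.0383, adjusted p = 0.168). Without the 2 farthest arrays these were 0.763 and 0.731. In young arrays, where Lcn2 and Chil3 lay near the floor, r was 0.347 and 0.141 (permutation p = 0.328 and 0.702, adjusted p = 0.554 and 0.772; rho 0.164 and −0.212, permutation p = 0.656 and 0.561, adjusted p = 0.833 for both), and 0.375 and −0.079 without the 2 farthest arrays. As deviations from array set means, r with Chil3 in old arrays was 0.758. Each set holds 2 old arrays, so these deviations are mirrored pairs. A permutation over 10 arrays does not test them, and this r is a description. Whether the relations differ between ages was not tested.

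Among the genes that met the filter and are no members, those most like S100a8 across 20 arrays were Il1b (r = 0.754), which encodes interleukin 1 beta, Cxcl1 (r = 0.752), a chemokine that attracts neutrophils, and Clec7a (r = 0.712), a receptor of myeloid cells for fungal glucans. Likeness was measured as the correlation of deviations from the age group means and is a description. For S100a9 they were Il1b (0.706), Cxcl1 (0.704) and Ccdc181 (0.677), and for Lcn2 they were Cldn5 (0.775), an endothelial tight junction gene, Sema6d (0.760) and E230013L22Rik (0.757). Of these 3, Cldn5 was lower in old by 0.73 (old minus young −0.73, adjusted p = 0.0471), opposite to Lcn2, Sema6d was higher by 0.40 (adjusted p = 0.00596) and E230013L22Rik was at 0.42 (adjusted p = 0.195). With array set means removed they stood at 0.631, 0.683 and 0.734. S100a8 and S100a9 themselves stood at 0.449 and 0.374 with Lcn2 on this measure. With set means removed Il1b stood at 0.749 with S100a8, Cxcl1 at 0.593 and Clec7a at 0.537.

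Neither Il1b nor Cxcl1 passed the test for age. Il1b averaged 4.68 in old and 4.78 in young on the log2 scale, a difference of −0.10 (adjusted p = 0.856). Its highest arrays were old replicate 9 at 6.04 and young replicate 15 at 6.06, and young replicates 11 and 17 followed at 5.47 and 5.28 among the young. Since Il1b was picked for its likeness to S100a8 in these arrays, shared high arrays follow in part from that choice. Cxcl1 averaged 5.11 in old and 4.74 in young, a difference of 0.37 (adjusted p = 0.518).

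**Figure D3:**
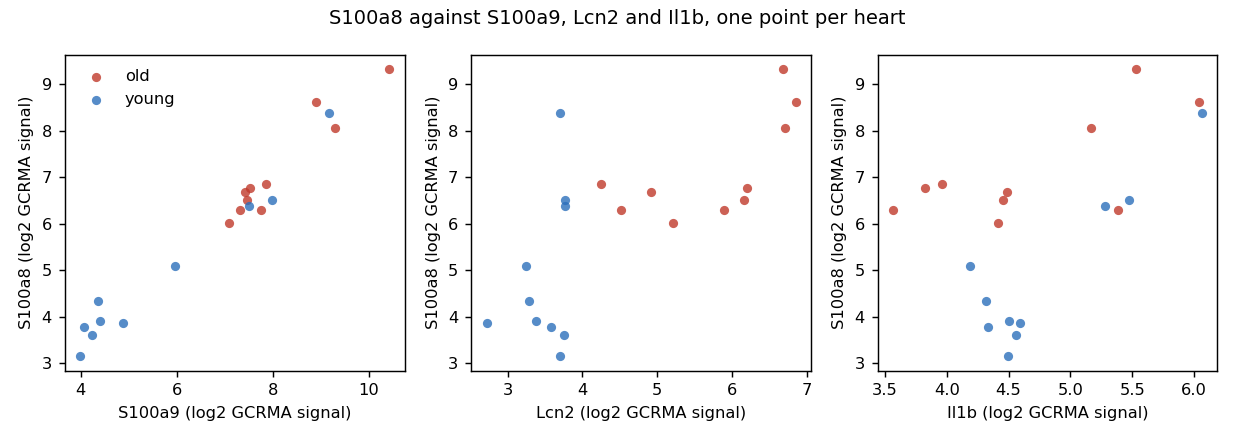
S100a8 on the vertical axis against S100a9, Lcn2 and Il1b on the horizontal axes (log2 GCRMA signal, 1 point per heart, old and young in separate colours). S100a8 and S100a9 fall along 1 line in both groups. Lcn2 does not overlap between the groups, which share levels of S100a8 only through 3 young hearts. The 3 young hearts with high S100a8 are also the young hearts with the highest Il1b, a gene picked for its likeness to S100a8 in these arrays.

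Old minus young was positive within every array set for the 3 called genes. For Lcn2 any split into sets holding both ages would give this, since its groups did not overlap. For S100a8 and S100a9, 7 of 10 young arrays lay below every old one, so much of it was fixed too. Within the 5 sets, each with 2 old and 2 young arrays, old minus young was 1.24 to 3.06 for S100a8, 1.22 to 3.37 for S100a9 and 1.17 to 2.95 for Lcn2, higher in old in all 5. For Chil3 it ran from −0.02 to 1.77 and was positive in 4 sets. In sets 2 and 4 no young array was high for S100a8, with old means of 6.60 and 6.57 against young means of 3.69 and 3.51. In sets 1, 3 and 5 the 3 young hearts with high calprotectin shared a set with the 3 highest old hearts, 1 of each in each set.

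**Figure D4:**
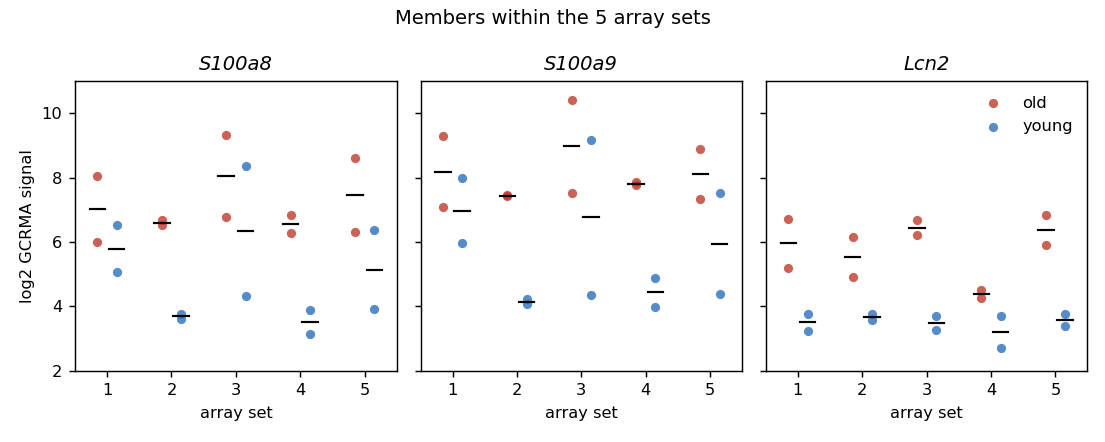
Log2 GCRMA signal of S100a8, S100a9 and Lcn2 within the 5 array sets found by clustering, 2 old and 2 young hearts in each, with a short line at each mean. The old mean is above the young mean in all 5 sets for all 3 genes, which for Lcn2 follows from groups that do not overlap.

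S100a8 and S100a9 were not called once the 7 old arrays with Myl7 above 10 were left out or an atrial index was fitted. Without those 7, with old replicates 1, 2 and 7 against 10 young arrays, S100a8 differed by 1.89 (adjusted p = 0.313), S100a9 by 2.39 (adjusted p = 0.252) and Lcn2 by 1.99 (adjusted p = 0.00402). S100a8 was 8.06, 6.01 and 6.29 in these 3 old arrays. Myl7 was 2.36, 8.27 and 6.58 in them, against at most 2.44 in young arrays. Replicates 2 and 7 thus still held atrial transcripts. With an index of atrial transcripts as a covariate the values were 2.18 (adjusted p = 0.123), 2.58 (adjusted p = 0.0877) and 1.87 (adjusted p = 0.00547). Lcn2 entered these fits through a filter that it met only by way of all old arrays. With no filter its adjusted p was 0.0202 without the 7 arrays and 0.0223 with the index, an alternative chosen after seeing the data, and whether it differs from calprotectin in this was not tested. The fold of each gene moved by less than 1.5 times. Of 12 atrial markers 7 were tested, and 5 rose and 0 fell, while of 13 ventricular muscle markers all 13 were tested and 0 were called at an adjusted p under 0.05 (2 had an unadjusted limma p under 0.05). In old arrays S100a8 had an r of 0.152 with the mean of the tested atrial markers (permutation p = 0.668, adjusted p = 0.772; rho 0.176, permutation p = 0.633, adjusted p = 0.833; 0.318 without the 2 farthest arrays). The part of atrial tissue in the members' rise was not tested beyond these values.

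Some red cell and platelet transcripts, which mark blood and its precursors, were higher in old hearts too. Of 14 red cell markers 9 were on the array and 6 were tested, and 4 rose and 0 fell, while Hbb-b2 and Fech were at 0.28 (adjusted p = 0.260) and 0.44 (adjusted p = 0.242). Their mean log2 value ran from 6.90 to 11.26 in old arrays and from 6.63 to 7.14 in young arrays. Old replicates 1, 4, 5 and 9 were at 8.95 to 11.26, and the 6 other old arrays at 6.90 to 7.32. Alas2, the first enzyme of haem synthesis in red cell precursors, rose by 1.85 (adjusted p = 0.0102) and was highest in old replicate 9 at 13.23. The probe sets assigned to Hba-a1 or Hba-a2 alone were under 4 in every array. Of 15 platelet markers 13 were on the array and 6 were tested, and all 6 rose, with a mean log2 value of 6.65 to 10.94 in old arrays and 5.18 to 6.15 in young arrays. Clec1b, a platelet receptor, rose by 4.17 (adjusted p = 2.051e-06) but was under 4 in every young array and met the filter only through old arrays. The 5 others all rose, with a median difference of 1.99, and the 7 untested genes enter no count.

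With the red cell mean as a covariate, S100a8 differed by 1.64 (adjusted p = 0.132), S100a9 by 1.98 (adjusted p = 0.103) and Lcn2 by 1.65 (adjusted p = 0.000552), so the first 2 were no longer called. On the linear scale this is a smaller fold by over 1.5 times for S100a8 and Lcn2. As deviations from array set means, S100a8 had in old arrays an r of 0.794 with the red cell mean and 0.746 with the platelet mean. These are descriptions, with the same limit as for Chil3. Without that step, S100a8 had in old arrays an r of 0.698 with the red cell mean (permutation p = 0.0214, adjusted p = 0.115; rho 0.539, permutation p = 0.113, adjusted p = 0.277; 0.904 without the 2 farthest arrays). In young arrays, whose red cell mean varied little, r was −0.560 (permutation p = 0.0932, adjusted p = 0.256; rho −0.564, permutation p = 0.0946, adjusted p = 0.260; −0.144 without the 2 farthest). With the platelet mean r was 0.615 in old (permutation p = 0.0591, adjusted p = 0.186; rho 0.588, permutation p = 0.0822, adjusted p = 0.258; 0.467 without the 2 farthest). The part of blood in the rise was not tested beyond these values.

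Markers of macrophages and monocytes, which are among the other cells that make S100a8, S100a9, Lcn2 or Chil3, were also higher. Of 30 markers 29 were on the array and 21 were tested, and 16 rose and 0 fell, with a median difference of 0.88 against 0.01 over all 9275 genes. Ccr2 and Vsig4 met the filter only through old arrays, and of the 19 others 14 rose, with a median of 0.84. Their mean log2 value ran from 7.05 to 8.21 in old arrays and from 6.12 to 6.88 in young arrays. Cd68, a lysosomal protein of macrophages, rose by 1.16 (adjusted p = 0.000326), while the macrophage marker Adgre1 was at 0.34 (adjusted p = 0.167). In old arrays S100a8 had an r of 0.695 with this mean (permutation p = 0.0262, adjusted p = 0.115; rho 0.758, permutation p = 0.0147, adjusted p = 0.108; 0.693 without the 2 farthest). Their part in the members' rise was not tested. Of 8 markers of alternatively activated macrophages, the state that Chil3 is used to mark in mice, 7 were on the array and 3 were tested, of which 2 rose and 0 fell. Retnla, a secreted resistin-like protein, rose by 1.32 (adjusted p = 0.00114) and Mrc1, the mannose receptor, by 0.65 (adjusted p = 0.000194). Mgl2 was at 0.11 (adjusted p = 0.548), and Arg1 was under 4 in every array. Of 11 endothelial markers 9 were tested, and 4 rose and 0 fell. Cdh5, Kdr, Tie1, Tek and Pecam1, which mark endothelial identity, were at −0.25, −0.004, 0.05, 0.16 and 0.48, none past the test (adjusted p = 0.126, 0.995, 0.899, 0.439 and 0.183). Vwf and Emcn, further endothelial markers in the list, were called higher, by 2.27 (adjusted p = 1.773e-05) and 0.38 (adjusted p = 0.0474). Icam1 and Vcam1, to which leukocytes adhere, rose by 1.73 (adjusted p = 2.051e-06) and 1.35 (adjusted p = 7.989e-06). Of 16 B and T cell markers 2 were tested and 1 rose. Of 13 eosinophil, basophil and mast cell markers, 0 met the filter and 11 were under 4 in every array.

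Of 8 azurophil and early granule genes besides Elane, 6 were under 4 in all 20 arrays, including Mpo (myeloperoxidase), Prtn3 (proteinase 3) and Ctsg (cathepsin G). The other 2 were tested and 1 rose: Serpinb1a, an inhibitor of neutrophil elastase, by 0.78 (adjusted p = 0.0138), although its other passing probe set differed by 0.14. Ctsc, the protease that activates granule proteases, was at 0.21 (adjusted p = 0.326), and its other passing probe set at 0.66.

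Of 20 further specific and gelatinase granule genes, 17 were on the array, 8 were under 4 in all arrays and 4 were tested, of which 2 rose and 0 fell. Anxa1, an anti-inflammatory lipid-binding protein, rose by 1.18 (adjusted p = 0.000151) and Lyz2, the lysozyme of myeloid cells, by 0.92 (adjusted p = 0.000329), and both are made by macrophages too. Cybb and Cyba, the subunits of the phagocyte oxidase, were at 0.96 (adjusted p = 0.0804) and 0.30 (adjusted p = 0.112). The collagenase gene Mmp8 was at 3.80 in old replicate 5 and at or below 2.36 in the 19 others.

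Of 30 surface and cytosol genes of mature neutrophils, 25 were on the array and 9 were tested, of which 2 rose and 0 fell, with a median difference of 0.25. Itgb2, the integrin beta chain shared by all leukocytes, rose by 1.70 (adjusted p = 5.677e-05), and Lrg1 by 0.32 (adjusted p = 0.0489). Csf3r, the receptor of the neutrophil growth factor G-CSF, averaged 4.57 ± 0.48 in old hearts (SD, n = 10) and 4.36 ± 0.08 in young hearts (SD, n = 10), a difference of 0.21 that did not pass the test (adjusted p = 0.361), with old replicate 5 at 5.86. The chemokine receptor gene Cxcr2 was under 4 in every array. Of the genes set to check for neutrophils besides S100a8 and S100a9, Csf3r did not pass the test, Cxcr2, Mmp8 and Mpo were under 4 in every array, and Ly6g had no probe set of its own in the annotation used.

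Of 12 genes for neutrophil attractants and growth factors, 9 were under 4 in all arrays, Csf3 and Cxcl5 among them. The 3 tested were Cxcl1, given above, and the platelet chemokine genes Pf4 and Ppbp, which rose by 1.53 (adjusted p = 0.000354) and 3.53 (adjusted p = 2.646e-05). Of 8 granulocyte transcription factor genes 7 were on the array and 3 were tested, of which 1 rose: Cebpd, by 0.59 (adjusted p = 0.0366), while Cebpb was at −0.53 (adjusted p = 0.114). Of 14 genes for receptors and inhibitors of the members 12 were on the array and 5 were tested, of which 2 rose and 0 fell. These were Lrp1 (0.93, adjusted p = 0.000357), an endocytic receptor, and Serpinb6a (0.38, adjusted p = 0.0102), a protease inhibitor. Tlr4, through which calprotectin signals, was at 0.20 (adjusted p = 0.477), and Slc22a17, a lipocalin 2 receptor, was under 4 in all arrays.

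Of 11 other genes of the acute phase and of the response to interleukin 6, to which Lcn2 belongs, 4 were tested, of which 3 rose and 0 fell, with a median difference of 1.01. Serpina3n, a protease inhibitor, rose by 3.46 (adjusted p = 1.694e-09), Socs3, an inhibitor of cytokine signalling, by 1.17 (adjusted p = 0.00431) and Lbp, which binds bacterial lipopolysaccharide, by 0.85 (adjusted p = 0.027). Steap4, the other tested gene, was at −0.06 (adjusted p = 0.768). Saa1, Saa2 and Il1rn of this list, and Il6 itself, were under 4 in every array.

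Below the filter, 2 genes were chosen after their values were seen, so their adjusted p is not read as support. Other genes of their granule and surface lists were called without the filter in both directions. Ifitm6 was higher (0.83, adjusted p = 0.0499), while Cd177 and Clec4e were lower (−0.04 and −0.07, adjusted p = 0.0485 and 0.0215) and under 4 in every array. Hp, haptoglobin, which is stored in specific granules and made by the liver, exceeded 4 in 9 old arrays and in 0 young ones. It averaged 5.98 ± 1.86 in old hearts and 3.68 ± 0.18 in young hearts (adjusted p = 0.0159 in the limma fit without the filter). Old replicate 8 stood at 10.39 for Hp, with the next old array at 6.705. That array was also the highest old array for the adipocyte markers Adipoq and Ucp1, and the source of Hp was not tested. Itgam, the alpha chain of the integrin of neutrophils and macrophages, averaged 3.49 ± 0.69 in old hearts and 2.57 ± 0.13 in young hearts (adjusted p = 0.011 in that fit), with 2 old arrays above 4.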

How the data were processed

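The authors deposited 1 log2 value per probe set and array, made with GCRMA per the submitters' processing notes, which give neither version nor log base. That the scale is log2 was read from the values (0.976 to 16.01). GCRMA places undetected transcripts near a common low value, so folds of dim genes are rough. All 20 columns were used. Groups and numbers came from the sample titles. The series' design text calls both age ranges young, read as a slip.

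Of 45101 probe sets, 64 were controls, 34945 had 1 gene, 932 several and 9160 others were unnamed here. Symbols were updated by gene identifier to the GRCm38.p6 gene table (34741 matched). The brightest passing probe set on average stood for its gene. limma 3.58.1 (R 4.3.3; lmFit, eBayes, Benjamini-Hochberg over all genes tested, threshold 0.05) compared old with young, with no covariate, for genes above 4 in at least 10 arrays. Members below the filter were read from the same fit without it. Differences are old minus young.

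Permutation tests used 100000 resamples, two-sided. Array sets came from average linkage clustering of residual correlations (cluster 2.1.8.1, mean silhouette 0.351). The atrial index is the mean of linear Myl7 and Sln values relative to each gene's highest array. On simulated data the filtered fit (9275 genes) recovered 93% of 100 genes changed by 1 on the log2 scale and 100% of 100 changed by 2. The simulated noise was independent between arrays, with 1 SD per gene for both groups and no array sets. The shares therefore check the fit and do not give its power in these arrays. The members and lists were chosen with earlier results of these data known. Of 265 list entries 239 matched. Named are the members, from each list up to 4 tested genes with the smallest p and the defining markers, and the 3 genes most like each called member. Genes named as lying at the floor, and Cdh5, Kdr, Tie1, Tek and Pecam1, were picked after their values were seen. The promoter letters were chosen after matches of several spellings were seen.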

Additional observations from a re-analysis of the deposited data

Results flagged for a closer look

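In 33 genes, 66 groups of 10 arrays were examined for an array that stood apart from the others, and 15 groups had 1. Chance gives about 1 in 20 groups, and many of these genes lie near the floor, where a small step is enough.

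Old replicate 9 was the highest old array for 4 floor members: Ngp at 3.189 (next 2.356), Camp at 2.634 (next 2.381), Ltf at 2.319 (next 2.116) and Elane at 2.421 (next 2.246). It was also at 8.10 for Slpi, an inhibitor of neutrophil elastase made by epithelia and leukocytes, where no other old array exceeded 3.63 and the young ones were at 3.44 or less. Replicate 9 was the highest old array for floor genes of other cell types too, such as Epx at 2.118 (next 2.105) and Lep at 2.612 (next 2.595). For others it was not, such as Hba-a2, highest in old replicate 8 at 2.198. The median of replicate 9, 3.156, was the highest of the old arrays, and a lift of its floor as a whole was not tested. Among young arrays, replicate 14 was at 2.648 for Elane (next 2.286) and replicate 19 at 2.72 for Lcn2 (next 3.244).

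Old replicate 5, the highest for S100a8 and S100a9, was at 5.858 for Csf3r (next 4.725) and at 3.798 for Mmp8 (next 2.357). Old replicate 8 was at 10.39 for Hp, haptoglobin (next 6.705), and at 6.419 for Selplg, a selectin ligand (next 5.026). It was also the highest old array for the adipocyte markers Adipoq (12.02, next 9.152) and Ucp1 (12.45, next 8.045), while Lep was under 4 in every array. Its mean of the tested B and T cell markers was 9.268, against at most 6.303 in the other old arrays. The source of Hp in this array was not tested. In young arrays, replicate 12 was at 9.074 for Ctsc (next 9.546) and 5.962 for Slc4a1 (next 5.279), replicate 18 at 4.155 for Csf3r (next 4.301) and replicate 20 at 2.291 for Mmp8 (next 2.316).

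A probe set assigned to both Chil3 and Chil4, which entered no comparison, read 5.102 in old replicate 1, 3.86 in old replicate 9 and 3.60 in old replicate 5, against at most 3.13 in the young arrays. The same 3 old arrays were the highest for the Chil3 probe set.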

How the results depend on the processing

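The call of Lcn2 held under all 11 other settings and in all 20 fits without 1 array (2.127 to 2.415), and within array set 4 its difference was 1.173. A filter above 6 left Lcn2 out. For all 3 called genes, settings that changed only the filter, probe set summary, prior, set block or test left the difference as it was. The permutation p counted among the settings is unadjusted. S100a8 and S100a9 kept their calls in 9 of 12 settings and in all 20 such fits (2.00 to 2.629 and 2.19 to 2.838). The 3 exceptions were the atrial index (2.176 and 2.581), the 3 old arrays left without Myl7 above 10 (1.89 and 2.389) and the red cell mean (1.637 and 1.978), and the cause was not tested. The 1732 called genes became 4345 (1301 higher, 3044 lower) without the filter, 3344 with the array set as a block, 347 with the atrial index, 272 without the 7 arrays and 825 with the red cell mean, and 1391 to 1830 without 1 array. The share of higher calls, 1037 of 1732, was 812 of 1879 after quantile normalization and 1144 of 1667 after median centring. S100a8, S100a9 and Lcn2 stayed called in both. Ngp, Camp and Ltf changed sign with the index (−0.098, −0.033 and −0.028), without the 7 arrays (−0.093, −0.033 and −0.031), with the red cell mean (−0.178, −0.057 and −0.048) and without old replicate 9 (ranges −0.080 to 0.049, −0.022 to 0.028 and −0.022 to 0.011), none called. Chil3 and Elane ran from 0.574 to 0.960 and −0.098 to −0.037 without 1 array. With no filter, an alternative chosen after seeing the data, S100a8 and S100a9 again had no call in those 3 (adjusted p 0.0757 to 0.250) and Lcn2 had one (0.0033 to 0.0223). Using each probe set of a member alone was not run, since each has 1. No paired analysis was possible because the groups share no replicate number.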
